A study of Homo sapiens with 18 samples.

Results

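The 2 hairpins directed against ZHX2, sh45 and sh43, were compared in 786-O cells, with 3 libraries of sh45 set against 3 of sh43, 6 of the 18 libraries of the series. The groups were found by the hairpin named in the sample titles. The 3 libraries of the control hairpin of the same experiment (shCtrl) gave the level from which each hairpin departed. 786-O is an established clear-cell kidney carcinoma line that carries no functional VHL, the ubiquitin ligase component that marks hypoxia-inducible factors for destruction. All 9 libraries come from this single line in DMEM with serum, and the sources used here name neither the vector of sh43 and sh45 nor the time between its introduction and the extraction of RNA. The labels call the extractions triplicates without saying whether they were separate cultures, so the spread between libraries may be technical.

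ZHX2 is a zinc-finger and homeobox protein that binds DNA and acts as a repressor or an activator depending on the gene. In clear-cell kidney carcinoma it is known as a protein that accumulates when VHL is lost and that supports NF-kB target genes. A short hairpin RNA is processed by Dicer and loaded on an Argonaute protein, which cuts RNAs that match it fully and represses RNAs that match only its seed, and for that reason at least a pair of hairpins is usually set against a target. A response found with a single hairpin cannot be assigned to the target from that hairpin alone.

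Levels are TMM-scaled CPM, the counts of a gene relative to all counts of its library, and differences are log2 values from edgeR's quasi-likelihood test, with Benjamini-Hochberg adjustment over all genes tested. The libraries held between 12733710 and 15613947 estimated counts, and the 3 libraries of each group lay together on the first 2 principal components. Mitochondrial rRNA took 2.83%, 3.09% and 3.35% of the counts under sh45, 1.51%, 1.56% and 1.57% under sh43 and 1.18%, 1.25% and 1.32% under shCtrl, so that all sh45 libraries lay above all others. Its part in the differences below was not tested beyond a fit without the rRNA genes, which called 9086 genes between the hairpins where the full table called 9088. The kidney lineage factor PAX8 averaged 479.9 CPM under sh45, 436 CPM under sh43 and, under shCtrl, 348 CPM, and 9 of 10 kidney epithelial markers were measured, with CDH1 among those below the filter on low counts. Of the leukocyte, endothelial and fibroblast markers, 3 of 16, 2 of 12 and 4 of 12 passed that filter, and PTPRC, PECAM1, CDH5 and PDGFRA, which define those cells, did not. CD68, a lysosomal protein counted among the leukocyte markers, averaged 59.6 CPM under sh45, 17.1 CPM under sh43 and, under shCtrl, 41.2 CPM, and its part in the results was not tested.

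ZHX2 mRNA was lowered by both hairpins, and further by sh43. It measured 90.8, 82.1 and 79.6 CPM under sh45, 38.6, 43.4 and 38.6 CPM under sh43 and, under shCtrl, 340.3, 344 and 344 CPM. The 3 groups did not overlap, and the residual level under sh45 exceeded that under sh43 (log2 difference 1.06, SE 0.06; edgeR, adjusted p = 5.7e-14). Against shCtrl, ZHX2 fell by 2.02 on the log2 scale under sh45 (SE 0.06; edgeR, adjusted p = 1.2e-20) and by 3.09 under sh43 (SE 0.06; edgeR, adjusted p = 4.6e-24). The treatment protocol in the labels lists hairpins 43 and 45 under USP13, the deubiquitinating enzyme targeted in the other experiment, but by title and condition they are ZHX2 hairpins. USP13 measured 46.1, 49.8 and 43.5 CPM under sh45, 31.7, 38.8 and 35.3 CPM under sh43 and, under shCtrl, 40.3, 39 and 44.7 CPM, so that its sh45 libraries lay above its sh43 libraries (log2 difference 0.39, SE 0.08; edgeR, adjusted p = 1.3e-04). The paralog ZHX3 was also higher under sh45 (94.4 CPM under sh45, 65.9 CPM under sh43 and, under shCtrl, 64.5 CPM; log2 difference 0.52, SE 0.06; edgeR, adjusted p = 5.4e-08), whereas ZHX1 did not pass (log2 difference -0.05; edgeR, adjusted p = 0.66). EPAS1, which encodes HIF-2alpha, the hypoxia-inducible factor that drives this tumour type, averaged 276 CPM under sh45, 354 CPM under sh43 and, under shCtrl, 209 CPM and was lower under sh45 than under sh43 (log2 difference -0.36, SE 0.05; edgeR, adjusted p = 1.8e-07). HIF1A was higher (log2 difference 0.31; edgeR, adjusted p = 0.0018), as was its partner ARNT (log2 difference 0.27; edgeR, adjusted p = 0.0023). The VHL transcript passed at a log2 difference of 0.18 (edgeR, adjusted p = 0.014), a call lost without sh45 replicate 1 (adjusted p = 0.058), sh45 replicate 3 (0.051) or sh43 replicate 2 (0.072).

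The first question was how far the 2 hairpins differ over the transcriptome. Of 13597 genes tested, 9088 (66.8%) differed between sh45 and sh43 at an adjusted p under 0.05, 4645 (34.2%) of them higher under sh45 and 4443 (32.7%) lower. Most differences were small: 1102 genes (8.1%) were called and more than 2 times higher under sh45 and 618 (4.55%) more than 2 times lower. The median absolute log2 value was 0.39 for sh45 against sh43, 0.27 for sh45 against shCtrl and 0.42 for sh43 against shCtrl, so the hairpins lay about as far from each other as sh43 lay from its control. Against shCtrl, 7145 genes (52.5%) passed under sh45, 3435 (25.3%) higher and 3710 (27.3%) lower, and 9353 (68.8%) passed under sh43, 4560 (33.5%) higher and 4793 (35.3%) lower. A share of a list near these backgrounds says nothing particular of the list. What separates the lists described below is the direction of their members and their median, set beside the median of 0.02 over all genes.

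**Figure D1:**
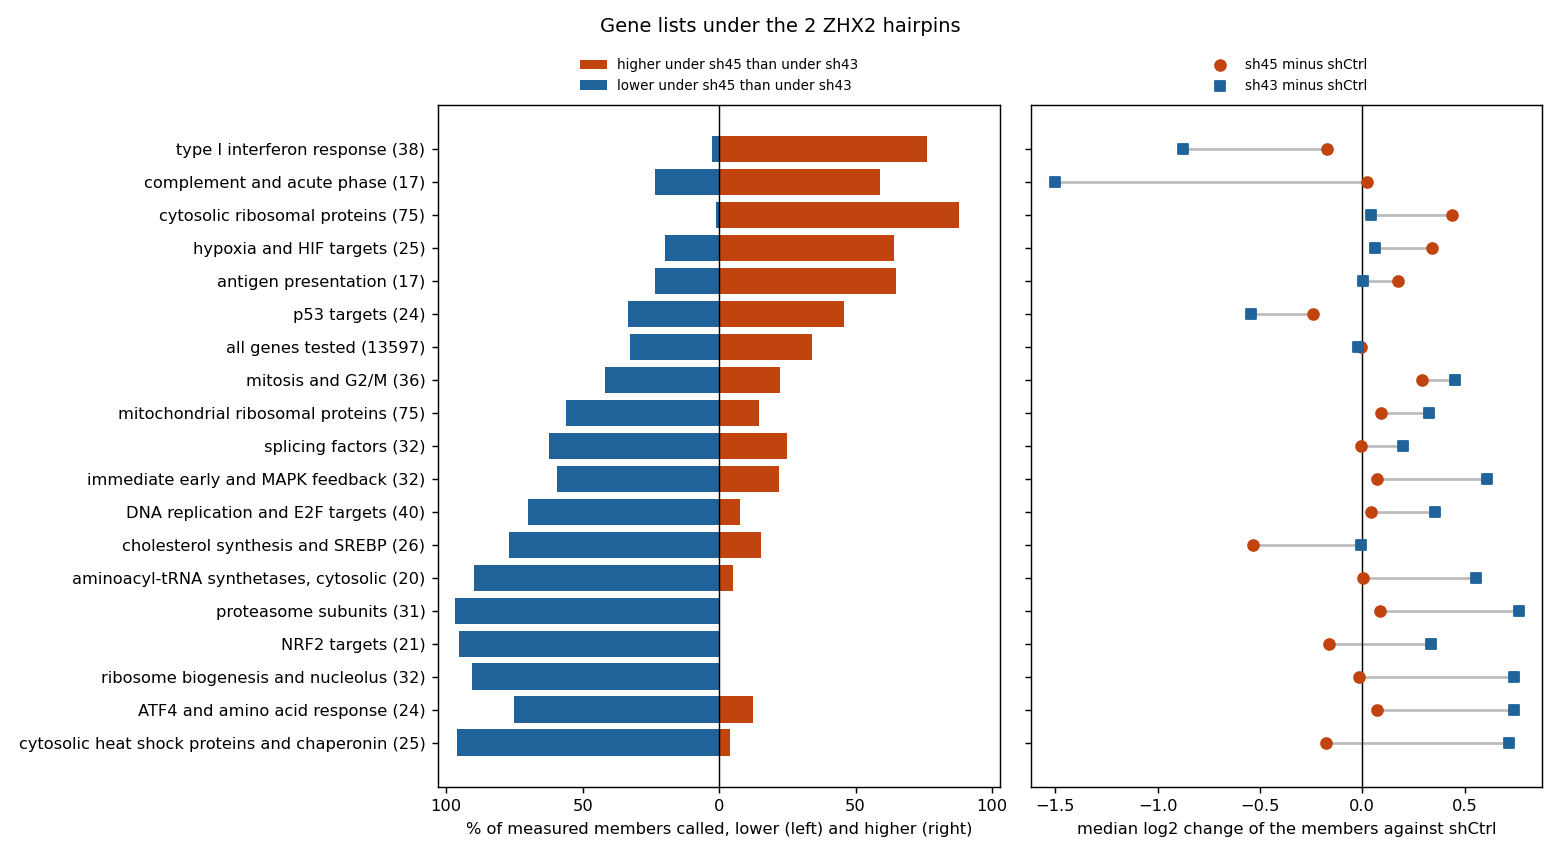
Gene lists under the 2 ZHX2 hairpins, with the number of measured members in parentheses. Only part of the 42 lists is shown, picked for display, beside all genes tested. Several lists without a lean, such as the collagens, laminins and integrins (16 of 35 higher and 14 lower), are left out. The left panel gives the percentage of members called as lower (left of 0) or higher (right of 0) under sh45 than under sh43, and the right panel gives the median log2 change of the members against shCtrl for sh45 (circles) and sh43 (squares). Heat shock, proteasome and ribosome biogenesis genes lie to the left in the first panel, and ribosomal protein and interferon response genes to the right.

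The genes with the largest differences between the hairpins, among those with no overlap between sh45 and sh43 libraries and a mean of 5 CPM or more in either group, belonged to varied families. On the higher side under sh45 stood IFITM1, an interferon-induced membrane protein that restricts virus entry, which measured 7.13, 7.25 and 7.66 CPM under sh45, 0.216, 0.0639 and 0.318 CPM under sh43 and, under shCtrl, 4.21, 3.41 and 3.02 CPM. The sh43 libraries lay near 0 and the sh45 libraries above every control (log2 difference 5.21, SE 0.34; edgeR, adjusted p = 5.1e-13). SEMA5B, a semaphorin guidance protein, measured 41.3, 36.6 and 41.6 CPM under sh45, 2.67, 2.81 and 3.18 CPM under sh43 and, under shCtrl, 118, 125 and 119.6 CPM. All sh45 libraries thus lay between the other groups, with sh43 at the bottom (log2 difference 3.79, SE 0.11; edgeR, adjusted p = 1.3e-20). CFB, which encodes complement factor B, measured 20.5, 19.8 and 18.5 CPM under sh45, 1.23, 2.3 and 1.99 CPM under sh43 and, under shCtrl, 17.5, 21.3 and 15.2 CPM. Here the sh45 and shCtrl libraries overlapped and those of sh43 were low (log2 difference 3.40, SE 0.18; edgeR, adjusted p = 5.6e-15). A low level under sh43 alone, with no call of sh45 against shCtrl, was also seen for PIANP (7.49 CPM under sh45, 0.543 CPM under sh43 and, under shCtrl, 8.18 CPM), MYH13 (7.85 CPM under sh45, 0.58 CPM under sh43 and, under shCtrl, 6.54 CPM), GBP2, an interferon-induced GTPase (11.5 CPM under sh45, 1.27 CPM under sh43 and, under shCtrl, 13.6 CPM), and ENPP3, a surface nucleotide pyrophosphatase found on kidney carcinoma cells (18.4 CPM under sh45, 2.08 CPM under sh43 and, under shCtrl, 15.7 CPM). TLCD3B and SYNGR3 behaved likewise, at log2 differences of 3.22 and 3.15. CKB, the brain-type creatine kinase, averaged 6.12 CPM under sh45, 0.54 CPM under sh43 and, under shCtrl, 8.83 CPM. PTGDS, a prostaglandin D synthase, averaged 15.5 CPM under sh45, 1.63 CPM under sh43 and, under shCtrl, 5.75 CPM, and CTHRC1, a secreted matrix protein, averaged 42.5 CPM under sh45, 4.59 CPM under sh43 and, under shCtrl, 23.3 CPM, both highest under sh45.

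On the lower side under sh45, HMOX1, the enzyme that degrades haem, measured 29.6, 28.5 and 28.2 CPM under sh45, 333, 283 and 324 CPM under sh43 and, under shCtrl, 37.4, 36.1 and 35.5 CPM. The sh43 libraries stood alone, and those of sh45 were slightly under the controls (log2 difference -3.44, SE 0.07; edgeR, adjusted p = 1.6e-23). STC2, a secreted glycoprotein induced by amino acid and endoplasmic reticulum stress, measured 24.5, 21.9 and 21.7 CPM under sh45, 196, 212 and 209.7 CPM under sh43 and, under shCtrl, 21, 21.6 and 19.9 CPM. Its sh45 libraries did not differ detectably from the controls (log2 change 0.13; edgeR, adjusted p = 0.18), and the difference between hairpins was -3.18 (SE 0.07; edgeR, adjusted p = 6.6e-23). L1CAM, a neural adhesion molecule, averaged 2.8 CPM under sh45, 30.3 CPM under sh43 and, under shCtrl, 4.13 CPM. MMP1, the interstitial collagenase, averaged 1.7 CPM under sh45, 21.3 CPM under sh43 and, under shCtrl, 0.515 CPM. ANKRD1, a muscle ankyrin protein and target of the coactivator YAP, averaged 1.48 CPM under sh45, 27.8 CPM under sh43 and, under shCtrl, 3.46 CPM. HBEGF, a membrane-bound ligand of the EGF receptor, averaged 1.43 CPM under sh45, 13.1 CPM under sh43 and, under shCtrl, 4.26 CPM. CYP1A1, the classical target of the aryl hydrocarbon receptor, averaged 0.703 CPM under sh45, 7.41 CPM under sh43 and, under shCtrl, 0.192 CPM. For genes close to silent under sh45 the sh43 level was low too, and KLRC1 averaged 6.68 CPM there, CPA4 6.94 CPM, TMEM156 5.68 CPM and JPH2 8.56 CPM. SP140, a chromatin reader of immune cells, averaged 0.948 CPM under sh45, 10.4 CPM under sh43 and, under shCtrl, 1.95 CPM.

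**Figure D2:**
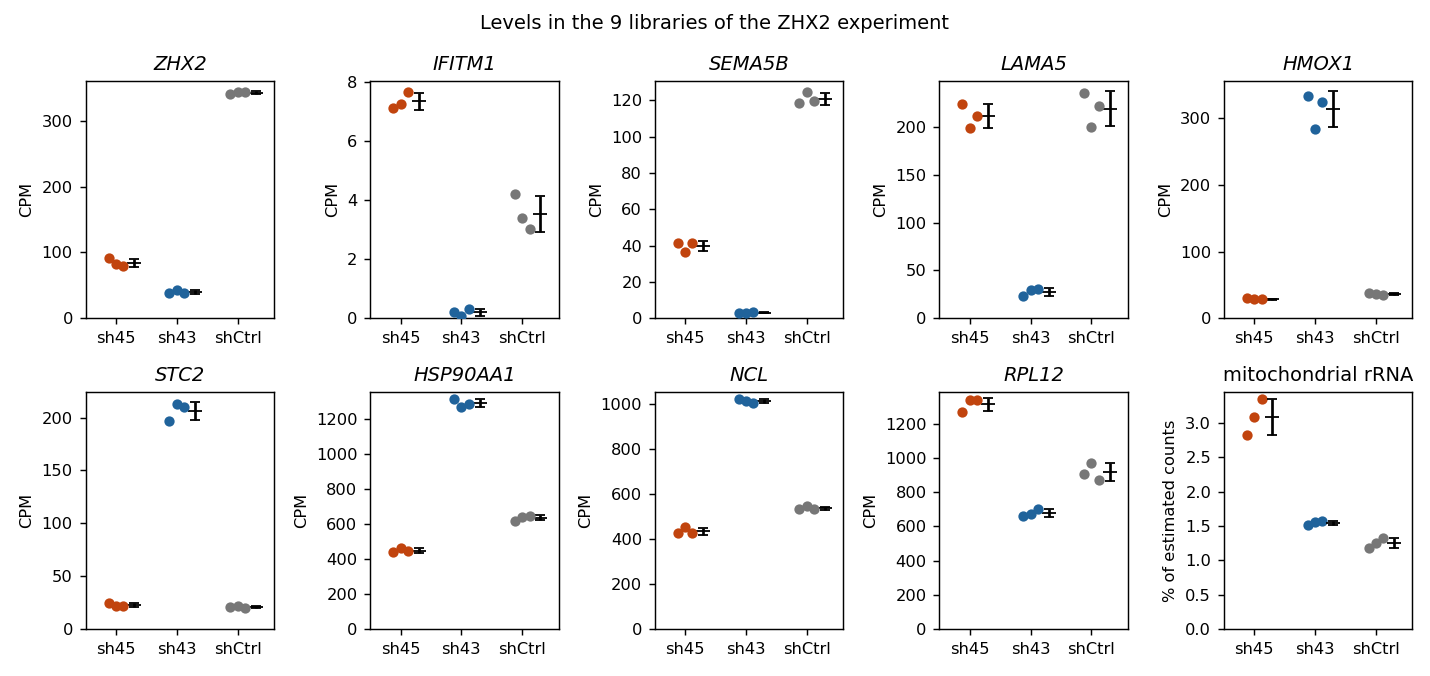
Levels of 9 genes in CPM, and the percentage of estimated counts from mitochondrial rRNA, in the 9 libraries of the ZHX2 experiment. Points are libraries, and the bar beside them is the mean with its SD over 3 libraries. ZHX2 lies at 90.8, 82.1 and 79.6 CPM under sh45 against 38.6, 43.4 and 38.6 CPM under sh43. Separate libraries were a condition for choosing IFITM1, SEMA5B, HMOX1 and STC2.

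Heat shock proteins and the cytosolic chaperonin were lower under sh45 than under sh43 in 24 of 25 members measured, with a median log2 difference of -0.89, and their medians lay on opposite sides of shCtrl under the 2 hairpins. Against shCtrl, 14 members fell and 2 rose under sh45 (median -0.18), whereas 23 rose and 2 fell under sh43 (median 0.72). These genes encode proteins that fold other proteins, and heat shock factor HSF1 controls many of them. HSP90AA1, the inducible HSP90, measured 437, 461 and 443 CPM under sh45, 1309, 1264 and 1286 CPM under sh43 and, under shCtrl, 618, 641 and 643 CPM. The 3 groups did not overlap, with sh45 lowest, shCtrl between and sh43 highest (log2 difference -1.53, SE 0.04; edgeR, adjusted p = 2.8e-21). HSPH1, a nucleotide exchange factor for HSP70, measured 152, 151 and 152 CPM under sh45, 412, 371 and 385 CPM under sh43 and, under shCtrl, 192, 192 and 196 CPM and kept the same order (log2 difference -1.36, SE 0.05; edgeR, adjusted p = 1.3e-18). CHORDC1, a cochaperone of HSP90, averaged 17.6 CPM under sh45, 50.9 CPM under sh43 and, under shCtrl, 23.2 CPM. HSPA8, the constitutive HSP70, averaged 789 CPM under sh45, 1567 CPM under sh43 and, under shCtrl, 940.4 CPM, and DNAJA1, an HSP70 cochaperone, averaged 174 CPM under sh45, 346 CPM under sh43 and, under shCtrl, 208 CPM. HSPA1A averaged 4.92 CPM under sh45, 20.1 CPM under sh43 and, under shCtrl, 7.77 CPM, but it is nearly identical to HSPA1B and the division of reads between them is uncertain. Among chaperonin subunits, CCT4 averaged 199 CPM under sh45, 406 CPM under sh43 and, under shCtrl, 225 CPM, whereas CCT5 was above shCtrl under both hairpins (485 CPM under sh45, 971 CPM under sh43 and, under shCtrl, 447 CPM). Of the 25 members, 13 passed in opposite directions, lower under sh45 and higher under sh43, beside 674 of all genes (4.96%). For 12 of these 13 the opposite call held under all 17 alternatives, and for HSPD1, the mitochondrial HSP60, it held under 14. DNAJB4 was the member higher under sh45 (21.8 CPM under sh45, 13.7 CPM under sh43 and, under shCtrl, 22.8 CPM; named after its value was seen).

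Promoters of 2 heat shock genes are shown because they hold the letters of the element that HSF1 is known to bind. The 250 bases before the annotated start were taken from the RefSeq promoter table (GRCh38.p14, strand of the gene) and searched on both strands for the heat shock element, here the units GAA, TTC and GAA with any 2 bases between neighbours, with matches in capitals. HSPA8 lies on the minus strand, with this window at chr11:123062137-123062386, and CHORDC1 on the minus strand at chr11:90223050-90223299.
HSPA8: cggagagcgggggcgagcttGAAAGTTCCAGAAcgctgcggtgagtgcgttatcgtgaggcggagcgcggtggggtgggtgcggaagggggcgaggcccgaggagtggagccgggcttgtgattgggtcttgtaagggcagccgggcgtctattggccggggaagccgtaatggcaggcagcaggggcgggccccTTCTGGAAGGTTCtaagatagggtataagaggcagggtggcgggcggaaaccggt
CHORDC1: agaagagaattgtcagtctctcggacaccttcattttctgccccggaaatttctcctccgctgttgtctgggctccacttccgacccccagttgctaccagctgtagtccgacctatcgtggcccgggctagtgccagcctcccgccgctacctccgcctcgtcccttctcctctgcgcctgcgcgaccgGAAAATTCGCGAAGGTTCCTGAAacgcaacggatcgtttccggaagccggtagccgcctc
The 3 overlapping matches of CHORDC1 form a single run. Among list members with a promoter in the table, 2 of 23 (8.7%) held a match in this window, HSPA8 and CHORDC1, beside 120 of all 27305 promoters (0.439%). HSPH1, DNAJB1, HSPA1A and HSP90AA1 held none in these 250 bases. The search required all 3 units without a mismatch, so elements that depart from these letters were not counted. The HSPA1A window holds a stretch that departs from the pattern only in its last base. Other annotated starts of a gene were not searched, so a match before those would be missed.

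Genes of ribosome biogenesis were mostly lower under sh45 than under sh43, as the heat shock genes were, while cytosolic ribosomal proteins were mostly higher. Of 32 nucleolar and ribosome assembly genes, 29 were lower under sh45 than under sh43 and 3 did not pass (median -0.79). Under sh43 31 of the 32 rose against shCtrl and 1 fell, and under sh45 11 rose and 12 fell. NCL, which encodes the abundant nucleolar protein nucleolin, measured 426, 453 and 426 CPM under sh45, 1026, 1017 and 1006 CPM under sh43 and, under shCtrl, 535, 546 and 534 CPM, so that sh45 lay below and sh43 above every control (log2 difference -1.22, SE 0.04; edgeR, adjusted p = 3.5e-19). NOLC1, a nucleolar phosphoprotein that binds RNA polymerase I, measured 80.4, 79.4 and 81.7 CPM under sh45, 262, 263 and 262 CPM under sh43 and, under shCtrl, 132, 139.6 and 139.6 CPM (log2 difference -1.70, SE 0.05; edgeR, adjusted p = 3.3e-20). The pre-rRNA processing factors RRP1B, WDR43, RRP12 and UTP20 had log2 differences of -1.42, -1.29, -1.23 and -1.39. Opposite calls, lower under sh45 and higher under sh43, were found for 11 of the 32, beside 674 of all genes (4.96%). For 8 of the 11 they held under all 17 alternatives, and those of NOP56, POLR1A and UTP20 held under 14, 15 and 7. FBL, NHP2 and GNL3 were the members whose difference between hairpins did not pass, at 0.08, 0.09 and -0.06 (named after their values were seen), and each was above shCtrl under both.

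Cytosolic ribosomal proteins, which make up the finished ribosome, were higher under sh45 in 66 of 75 members measured and lower in 1, with a median of 0.37. They rose against shCtrl in 73 of 75 under sh45 (median 0.44), and under sh43 29 rose and 13 fell (median 0.04). RPL12, a protein of the large subunit stalk, measured 1270.3, 1336 and 1336 CPM under sh45, 659, 673 and 704 CPM under sh43 and, under shCtrl, 907, 972 and 869.6 CPM, with the controls between the hairpins (log2 difference 0.95, SE 0.04; edgeR, adjusted p = 3.3e-16). RPS25, RPL28 and RPS18 had log2 differences of 0.75, 0.73 and 0.65. The list held 12 members with opposite calls, all higher under sh45 and lower under sh43, beside 595 of all genes (4.38%). Of these, 10 held under all 17 alternatives, RPL31 held under 16 and RPS9 under 7. RPL3 averaged 1772 CPM under sh45, 1236 CPM under sh43 and, under shCtrl, 1525 CPM and RPLP0 averaged 2438 CPM under sh45, 1687 CPM under sh43 and, under shCtrl, 1963 CPM. RPS26, the member lower under sh45, averaged 133 CPM under sh45, 163 CPM under sh43 and, under shCtrl, 102 CPM. Ribosomal protein genes have many processed pseudogenes, with which the counting could share reads.

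Mitochondrial ribosomal proteins, in contrast, were lower under sh45 in 42 of 75 and higher in 11 (median -0.27). Under sh43 55 rose and 2 fell against shCtrl, and under sh45 27 rose and 13 fell. MRPS10 averaged 30.5 CPM under sh45, 57.3 CPM under sh43 and, under shCtrl, 41.9 CPM and MRPL15 averaged 68 CPM under sh45, 128 CPM under sh43 and, under shCtrl, 65.7 CPM, whereas MRPL40 was higher under sh45 (36.4 CPM under sh45, 20.9 CPM under sh43 and, under shCtrl, 28.2 CPM). Opposite calls were found for 11 of the 75 members, beside 1269 of all genes (9.33%). Of the 11, MRPL40 was the one higher under sh45, and 6 kept the call under all 17 alternatives. Of the other 10, 5 remained called with upper-quartile factors and 6 without sh45 replicate 1, and with upper-quartile factors 17 members were higher and 40 lower between hairpins.

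**Figure D3:**
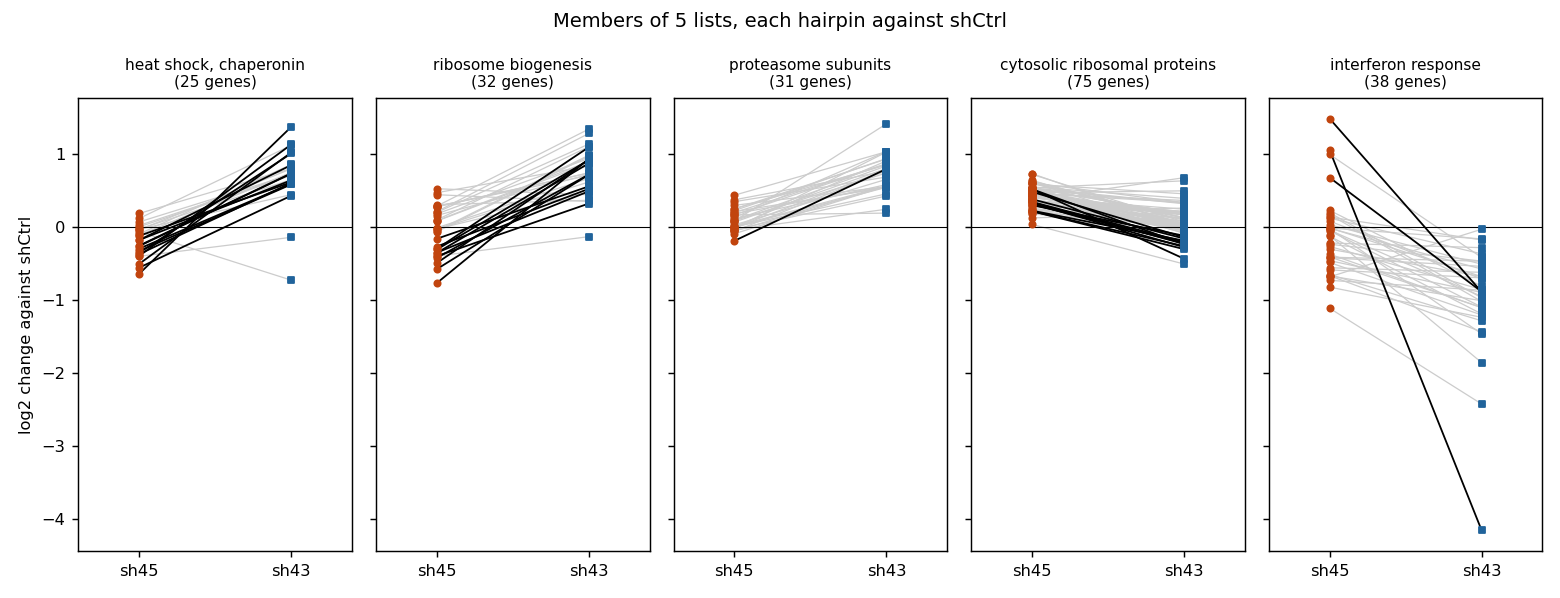
Log2 changes against shCtrl of every measured member of 5 lists, under sh45 (circles, left) and sh43 (squares, right), with a line joining each gene's values. Black lines mark genes called in opposite directions. There are 13 among heat shock and chaperonin genes, 11 in ribosome biogenesis and 1 in the proteasome, all lower under sh45. Another 12 among ribosomal proteins and 3 in the interferon list are higher under sh45. Over all genes tested, 674 (4.96%) were lower under sh45 and higher under sh43, and 595 (4.38%) the reverse.

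Proteasome subunits were lower under sh45 than under sh43 in 30 of 31 members, with a median of -0.62. The list differed from the heat shock genes in its place against the control: all 31 rose under sh43 (median 0.77), while under sh45 12 rose, 1 fell and 18 did not pass (median 0.09). PSMD2, a scaffold subunit of the 19S cap, measured 352, 379.8 and 375 CPM under sh45, 915, 917 and 951 CPM under sh43 and, under shCtrl, 357, 357 and 331 CPM. The sh43 libraries stood above the other groups, between which no difference passed (log2 difference -1.33, SE 0.04; edgeR, adjusted p = 4.0e-19). PSMD12, PSMC4 and PSMC1 had log2 differences of -1.05, -0.90 and -0.91. PSMD1 was the subunit with opposite calls (115 CPM under sh45, 228 CPM under sh43 and, under shCtrl, 131 CPM), and these held under all 17 alternatives. Over all genes 674 (4.96%) passed in this direction, so 1 of 31 members says nothing particular of the list. PSMB5, a catalytic subunit, was the member whose difference between hairpins did not pass (log2 difference -0.02; named after its value was seen).

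Genes of the amino acid response were mostly lower under sh45 than under sh43. The response is driven by ATF4, a transcription factor whose translation increases when amino acids are short or unfolded proteins accumulate. Of 24 members of the ATF4 list, 18 were lower and 3 higher under sh45 than under sh43 (median -0.88), 16 rose and 3 fell under sh43, and 9 rose and 8 fell under sh45. Beside STC2, given above, SLC7A11, the cystine importer, measured 36.5, 34.8 and 30.3 CPM under sh45, 142, 147 and 146 CPM under sh43 and, under shCtrl, 31.5, 26.2 and 31.2 CPM. All sh43 libraries exceeded all others several times over (log2 difference -2.10, SE 0.07; edgeR, adjusted p = 1.2e-18). CHAC1, which degrades glutathione, averaged 5.94 CPM under sh45, 27.9 CPM under sh43 and, under shCtrl, 9.36 CPM, PSAT1, of serine synthesis, averaged 101 CPM under sh45, 283 CPM under sh43 and, under shCtrl, 113 CPM, and CTH, of cysteine synthesis, averaged 7.64 CPM under sh45, 23 CPM under sh43 and, under shCtrl, 9.48 CPM. ATF4 mRNA itself differed less, at 330.1 CPM under sh45, 405 CPM under sh43 and, under shCtrl, 295 CPM (log2 difference -0.30; named after its value was seen). Members with opposite calls were CHAC1, PSAT1 and PSPH, lower under sh45, and DDIT4, higher, beside 1269 of all genes (9.33%) with opposite calls. The call of PSAT1 held under 16 of 17 alternatives and the others under all. The 3 members higher under sh45 were DDIT4, TRIB3 and SLC38A2, at 0.53, 0.40 and 0.23 (the last 2 named after their values were seen). The C/EBP-ATF response element, written as TGATGNAA, was present in 3 of 19 promoters of the list (15.8%) and 3.19% of all promoters.

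Cytosolic aminoacyl-tRNA synthetases, the enzymes that charge tRNAs and are in part ATF4 targets, were lower under sh45 in 18 of 20, and 19 of 20 rose under sh43 (medians -0.57 between hairpins, 0.00 for sh45 and 0.55 for sh43 against shCtrl). WARS1, the tryptophanyl enzyme, averaged 56 CPM under sh45, 170.4 CPM under sh43 and, under shCtrl, 60.1 CPM, and GARS1, the glycyl enzyme, averaged 188 CPM under sh45, 454 CPM under sh43 and, under shCtrl, 195 CPM. IARS1, the isoleucyl enzyme, was lower than shCtrl under sh45 and higher under sh43 (258 CPM under sh45, 555 CPM under sh43 and, under shCtrl, 353 CPM). The glutaminyl enzyme QARS1 ran the other way (202 CPM under sh45, 129 CPM under sh43 and, under shCtrl, 182 CPM), with opposite calls that held under 16 of 17 alternatives.

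Targets of NRF2, the factor that answers oxidants and electrophiles, were lower under sh45 in 20 of 21 members (median -0.69). NQO1, a quinone reductase, measured 133, 134 and 136 CPM under sh45, 432, 402 and 427 CPM under sh43 and, under shCtrl, 181, 183 and 181 CPM and had opposite calls against shCtrl (log2 difference -1.64, SE 0.05; edgeR, adjusted p = 1.3e-20 between hairpins). TXNRD1, thioredoxin reductase, measured 348, 344 and 336 CPM under sh45, 932, 919 and 937 CPM under sh43 and, under shCtrl, 361, 335 and 353 CPM (log2 difference -1.44, SE 0.04; edgeR, adjusted p = 2.0e-20). Under sh43 16 of 21 rose and 3 fell, and under sh45 2 rose and 9 fell. AKR1B10, an aldo-keto reductase, averaged 8.38 CPM under sh45, 35.3 CPM under sh43 and, under shCtrl, 9.92 CPM, and the export pump ABCC2 averaged 2.54 CPM under sh45, 9.42 CPM under sh43 and, under shCtrl, 2.92 CPM. OSGIN1 was above shCtrl under both hairpins (18.2 CPM under sh45, 47.5 CPM under sh43 and, under shCtrl, 10.5 CPM; named after its value was seen). The antioxidant response element, written as TGACNNNGC, was present in 4 of 15 promoters of the list (26.7%), 12.1% of promoters of genes tested and 11% of all promoters. Other lists varied, with 9 of 20 (45%) for autophagy and lysosome genes, 5 of 11 (45.5%) for the ZHX family and partners and 0 of 19 for cholesterol synthesis. The share is thus not particular to NRF2 targets. The lists overlap in SLC7A11.

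Interferon response genes were higher under sh45 than under sh43 in 29 of 38 members and lower in 1, IFIT3, with a median of 0.65. This difference lay mostly in how far they fell: 34 of 38 fell under sh43 (median -0.87), while 19 fell and 4 rose under sh45 (median -0.17). IRF7, which drives interferon genes, measured 12.2, 11.7 and 11.3 CPM under sh45, 4.33, 3.39 and 5.4 CPM under sh43 and, under shCtrl, 11.6, 11.8 and 12.4 CPM, and sh45 overlapped with shCtrl (log2 difference 1.44, SE 0.15; edgeR, adjusted p = 5.8e-09). CMPK2, an interferon-induced mitochondrial kinase, averaged 3.6 CPM under sh45, 1.09 CPM under sh43 and, under shCtrl, 3.9 CPM. Beside IFITM1, given above, IFI27 (10.2 CPM under sh45, 2.02 CPM under sh43 and, under shCtrl, 3.63 CPM) and IFI6 (141 CPM under sh45, 47.8 CPM under sh43 and, under shCtrl, 88 CPM) rose under sh45 and fell under sh43; the calls of IFI27 held under 16 of 17 alternatives, and those of the others under all. These 3 of 38 members stand beside 595 of all genes (4.38%) that passed in this direction. ISG20 rose under sh45 (log2 change 0.99; edgeR, adjusted p = 8.0e-05) but did not pass under sh43 (log2 change -0.42; edgeR, adjusted p = 0.093).

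Promoters of 3 interferon response genes are shown because they hold the interferon-stimulated response element, here GAAA, any 2 bases and GAAA, searched as above on both strands, with matches in capitals. All lie on the plus strand (GRCh38.p14, RefSeq), with windows at chr10:89392373-89392622 for IFIT1, chr14:94110486-94110735 for IFI27 and chr11:313790-314039 for IFITM1. IFIT1, which binds foreign RNA, fell under both hairpins (30.9 CPM under sh45, 23.3 CPM under sh43 and, under shCtrl, 54.6 CPM; named after its value was seen), whereas the other two had opposite calls.
IFIT1: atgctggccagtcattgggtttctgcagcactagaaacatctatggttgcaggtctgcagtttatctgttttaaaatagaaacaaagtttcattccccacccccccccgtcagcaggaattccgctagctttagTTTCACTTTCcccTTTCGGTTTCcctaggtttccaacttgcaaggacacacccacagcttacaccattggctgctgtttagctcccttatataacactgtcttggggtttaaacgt
IFI27: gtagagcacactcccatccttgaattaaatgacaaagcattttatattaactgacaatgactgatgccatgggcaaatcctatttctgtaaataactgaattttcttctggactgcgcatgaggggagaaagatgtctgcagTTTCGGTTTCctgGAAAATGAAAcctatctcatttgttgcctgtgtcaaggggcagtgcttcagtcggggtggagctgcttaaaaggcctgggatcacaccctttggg
IFITM1: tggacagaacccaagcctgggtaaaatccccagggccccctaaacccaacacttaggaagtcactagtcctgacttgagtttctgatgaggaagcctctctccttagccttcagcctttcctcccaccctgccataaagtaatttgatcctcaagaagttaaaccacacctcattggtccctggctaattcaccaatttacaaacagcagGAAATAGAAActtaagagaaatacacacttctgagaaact
Of 30 list members with a promoter in the table, 17 (56.7%) held a match, beside 839 of all 27305 promoters (3.07%). The 3 promoters shown were picked for display, and whether a match goes with the direction of a member was not tested.

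Antigen presentation genes, in part interferon targets, were higher under sh45 in 11 of 17 and lower in 4 (median 0.25, and 0.15 without sh45 replicate 3). B2M, the light chain of class I molecules, averaged 1891 CPM under sh45, 1134 CPM under sh43 and, under shCtrl, 1962 CPM, and the non-classical class I gene HLA-E averaged 339 CPM under sh45, 196 CPM under sh43 and, under shCtrl, 324 CPM. HLA-F, TAPBP and HLA-C had opposite calls, higher under sh45 (1.04, 0.37 and 0.53 between hairpins), of which that of HLA-C held under 16 of 17 alternatives. Among all genes 595 (4.38%) passed in this direction. Class I genes resemble each other, so reads may be divided between them. Complement and acute phase genes were higher under sh45 in 10 of 17 and lower in 4, with a median of 1.11. Against shCtrl 5 of these genes, most of which encode secreted proteins typical of liver, rose and 7 fell under sh45 (median 0.02), and 4 rose and 11 fell under sh43 (median -1.50). CP, ceruloplasmin, averaged 282 CPM under sh45, 97.9 CPM under sh43 and, under shCtrl, 278 CPM. SAA1, an acute phase apolipoprotein, had opposite calls (187 CPM under sh45, 83.3 CPM under sh43 and, under shCtrl, 110.2 CPM), and its copy SAA2 averaged 13.4 CPM under sh45, 3.13 CPM under sh43 and, under shCtrl, 18.5 CPM; the 2 are alike enough for reads to be shared. PTX3, a soluble pattern receptor, was lower under sh45 than under sh43 and above shCtrl under both (20.8 CPM under sh45, 50.9 CPM under sh43 and, under shCtrl, 1.95 CPM). C4A and C4B, near-identical copies, were close to the filter on low counts and are not described further.

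Hypoxia-inducible targets bear on the setting, since HIF-2alpha is always active in cells without VHL. Of 25 members, 16 were higher and 5 lower under sh45 than under sh43 (median 0.36). VEGFA, the angiogenic growth factor, measured 1474, 1389 and 1352 CPM under sh45, 602, 608 and 611 CPM under sh43 and, under shCtrl, 526, 531 and 556 CPM. Its sh45 libraries lay above all others, and the sh43 change against shCtrl was 0.17 (log2 difference 1.21, SE 0.04; edgeR, adjusted p = 7.0e-19). P4HA2, a collagen prolyl hydroxylase, averaged 232 CPM under sh45, 110.1 CPM under sh43 and, under shCtrl, 103 CPM, and CA12, a surface carbonic anhydrase, averaged 2238 CPM under sh45, 1143 CPM under sh43 and, under shCtrl, 672 CPM. EGLN3, a hydroxylase that acts on HIF, averaged 135 CPM under sh45, 59.3 CPM under sh43 and, under shCtrl, 146 CPM, low under sh43 alone. PFKFB3, a regulator of glycolysis, was the member with the largest negative difference (157 CPM under sh45, 343 CPM under sh43 and, under shCtrl, 308 CPM; log2 difference -1.12, SE 0.04; edgeR, adjusted p = 1.0e-17) and was lower than shCtrl under sh45 and higher under sh43. BHLHE40, a hypoxia-induced repressor, had opposite calls the other way (477 CPM under sh45, 262 CPM under sh43 and, under shCtrl, 369 CPM). Glycolytic genes were mixed, with 6 of 20 higher and 9 lower under sh45. Among them PFKL averaged 377 CPM under sh45 and 203 CPM under sh43 and PGAM1 averaged 368 CPM under sh45 and 834 CPM under sh43, and PGAM1 alone had opposite calls against shCtrl.

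Genes of DNA replication were lower under sh45 in 28 of 40 and higher in 3 (median -0.33). Under sh43 28 rose and 4 fell, and under sh45 10 rose and 8 fell, of which 4 fell without sh45 replicate 1 and 5 without shCtrl replicate 3. CDC25A, the phosphatase that admits cells to S phase, averaged 12.6 CPM under sh45, 25.1 CPM under sh43 and, under shCtrl, 11.9 CPM, and MCM10, a replication initiation factor, averaged 13.4 CPM under sh45, 26.8 CPM under sh43 and, under shCtrl, 17 CPM. CDC6 and MCM2, of origin licensing, had log2 differences of -0.72 and -0.65. LIG1, a DNA ligase, was higher under sh45 (59.8 CPM under sh45, 37 CPM under sh43 and, under shCtrl, 45.8 CPM), with opposite calls that held under all 17 alternatives. Mitotic genes differed less, with 8 of 36 higher and 15 lower under sh45 (median -0.11; with upper-quartile factors 10 higher and 10 lower, median -0.04), and 26 and 27 of them rose against shCtrl under sh45 and sh43. FOXM1, a mitotic transcription factor, averaged 105 CPM under sh45, 153 CPM under sh43 and, under shCtrl, 90 CPM, and PLK1, a mitotic kinase, averaged 132 CPM under sh45, 190.4 CPM under sh43 and, under shCtrl, 104 CPM. HMMR, a spindle protein, averaged 60.2 CPM under sh45, 34.4 CPM under sh43 and, under shCtrl, 51.4 CPM. In bulk RNA, more cells in a phase and more RNA per cell cannot be told apart.

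Cholesterol synthesis genes were lower under sh45 in 20 of 26 and higher in 4 (median -0.46). Against shCtrl 20 fell and 1 rose under sh45, whereas 7 rose and 11 fell under sh43. ACAT2, which joins acetyl-CoA units at the start of the pathway, measured 30.9, 31.5 and 33.5 CPM under sh45, 56.6, 58.4 and 58.5 CPM under sh43 and, under shCtrl, 41.5, 40 and 42.4 CPM, with shCtrl between the hairpins (log2 difference -0.85, SE 0.07; edgeR, adjusted p = 2.1e-11). IDI1, an isomerase of the isoprenoid steps, averaged 33 CPM under sh45, 55.7 CPM under sh43 and, under shCtrl, 54 CPM, and LSS, lanosterol synthase, averaged 57.8 CPM under sh45, 100.1 CPM under sh43 and, under shCtrl, 134 CPM. ACAT2 and the sterol demethylase CYP51A1 had opposite calls, both lower under sh45, under all 17 alternatives. TM7SF2, a sterol reductase, was an exception (12.1 CPM under sh45, 4.17 CPM under sh43 and, under shCtrl, 12.2 CPM).

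Lists of signalling targets had more members lower than higher under sh45, with exceptions in each. Of 32 immediate early and MAPK feedback genes, 19 were lower and 7 higher under sh45 than under sh43 (median -0.31). Among the lower ones were feedback inhibitors of ERK signalling: SPRY4 averaged 3.42 CPM under sh45, 11.9 CPM under sh43 and, under shCtrl, 0.89 CPM, DUSP5 averaged 48.7 CPM under sh45, 108 CPM under sh43 and, under shCtrl, 20.8 CPM and DUSP4 averaged 7.02 CPM under sh45, 15.8 CPM under sh43 and, under shCtrl, 4.75 CPM, all above shCtrl under both hairpins. EGR1, an immediate early transcription factor, was higher under sh45 but far below its control under both (9.59 CPM under sh45, 3.4 CPM under sh43 and, under shCtrl, 141 CPM). Of 20 YAP targets, 11 were lower and 5 higher under sh45 (median -0.20, and -0.12 with upper-quartile factors). Beside ANKRD1, the AMPK-related kinase NUAK2 averaged 12.1 CPM under sh45, 32.5 CPM under sh43 and, under shCtrl, 14.8 CPM, and DLC1, a GTPase-activating protein, averaged 33.4 CPM under sh45, 68.8 CPM under sh43 and, under shCtrl, 45.9 CPM, whereas IGFBP3, an IGF-binding protein, was higher under sh45 (1828 CPM under sh45, 462 CPM under sh43 and, under shCtrl, 1236 CPM; log2 difference 1.99, SE 0.05; edgeR, adjusted p = 2.0e-22). Among TGF-beta targets (10 lower and 5 higher of 20; median -0.22, and -0.15 with upper-quartile factors), the inhibitory factor ID3 averaged 10.7 CPM under sh45, 38.5 CPM under sh43 and, under shCtrl, 71.6 CPM and INHBA, an activin subunit, averaged 25.9 CPM under sh45, 87.7 CPM under sh43 and, under shCtrl, 20.2 CPM. 4 TGF-beta targets, BAMBI, ID2, PMEPA1 and SMAD7, were lower than shCtrl under sh45 and higher under sh43, beside 674 of all genes (4.96%). The call of BAMBI held under 14 of 17 alternatives and the others under all. LTBP3 ran the other way (729 CPM under sh45, 363 CPM under sh43 and, under shCtrl, 556 CPM).

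NF-kB targets, the programme for which ZHX2 is known in this tumour type, mostly rose against control under both hairpins and were split between them. Of 19 members, 6 were higher and 9 lower under sh45 than under sh43 (median 0.12). With upper-quartile factors 9 were higher and 6 lower (median 0.20), and the median was 0.08 without sh45 replicate 3. Against shCtrl 13 rose under each hairpin, with 3 falling under sh45 and 4 under sh43. CXCL2, a neutrophil chemokine, averaged 18.3 CPM under sh45, 11.1 CPM under sh43 and, under shCtrl, 7.83 CPM, and TRAF1, an adaptor of TNF receptors, averaged 5.23 CPM under sh45, 12.2 CPM under sh43 and, under shCtrl, 2.31 CPM. CXCL8, the chemokine interleukin 8, averaged 62.2 CPM under sh45, 56.4 CPM under sh43 and, under shCtrl, 8.88 CPM and its difference between hairpins did not pass (log2 difference 0.14; edgeR, adjusted p = 0.067; named after its value was seen).

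Single matrix and kidney tubule genes differed by large amounts between the hairpins. LAMA5, a laminin chain of mature basement membranes, measured 224, 199 and 211 CPM under sh45, 22.9, 29 and 30.4 CPM under sh43 and, under shCtrl, 236, 199 and 222 CPM. The sh45 libraries overlapped with shCtrl, and sh43 lay far below (log2 difference 2.95, SE 0.08; edgeR, adjusted p = 6.8e-21). COL4A2, a type IV collagen chain, averaged 603 CPM under sh45, 162 CPM under sh43 and, under shCtrl, 698 CPM, and LAMA4, another laminin chain, was detected mainly under sh43 (0.275 CPM under sh45, 3.34 CPM under sh43 and, under shCtrl, 0.0955 CPM). As a whole the collagens, laminins and integrins did not lean to a side, with 16 of 35 higher and 14 lower under sh45. Among kidney tubule genes, 10 of 27 were higher and 11 lower (12 and 10 with upper-quartile factors). FXYD2, the regulatory subunit of the tubular sodium pump, measured 357, 337 and 382 CPM under sh45, 47.4, 50.8 and 55.3 CPM under sh43 and, under shCtrl, 351, 379.7 and 357 CPM, again with sh43 alone low (log2 difference 2.81, SE 0.06; edgeR, adjusted p = 6.6e-23). CDH16, the kidney-specific cadherin, averaged 34.7 CPM under sh45, 7.27 CPM under sh43 and, under shCtrl, 71.9 CPM, and PDZK1, a brush border scaffold, averaged 52.2 CPM under sh45, 23 CPM under sh43 and, under shCtrl, 168 CPM. MMP2, a gelatinase, averaged 307 CPM under sh45, 84.1 CPM under sh43 and, under shCtrl, 294 CPM.

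Splicing factors were lower under sh45 in 20 of 32 and higher in 8 (median -0.29). Opposite calls were found for 10, of which 8 were lower and 2 higher under sh45, beside 1269 of all genes (9.33%). Of these, 7 held under all 17 alternatives, and those of SRSF7, TRA2B and LUC7L held under 14, 13 and 6. HNRNPM averaged 196 CPM under sh45, 395 CPM under sh43 and, under shCtrl, 239 CPM and TRA2A averaged 26.2 CPM under sh45, 50.1 CPM under sh43 and, under shCtrl, 38.3 CPM, whereas LUC7L3, a protein of the U1 particle, was higher under sh45 (243 CPM under sh45, 126 CPM under sh43 and, under shCtrl, 170.4 CPM). While mitochondrial rRNA took a larger share under sh45, of 27 genes that transcribe and process mitochondrial RNA 18 were lower and 3 higher under sh45 (median -0.34). HSD17B10, a subunit of mitochondrial RNase P, averaged 46.4 CPM under sh45, 91.2 CPM under sh43 and, under shCtrl, 41.8 CPM, FASTKD5, which processes mitochondrial transcripts, averaged 12.3 CPM under sh45, 23.7 CPM under sh43 and, under shCtrl, 18.6 CPM, and MTERF2 was higher under sh45 (8.5 CPM under sh45, 4.94 CPM under sh43 and, under shCtrl, 7.19 CPM).

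The last question was which genes move in opposite directions from the control. Both contrasts use the same 3 shCtrl libraries, so the count of opposite genes is given as a description, with no test, and the values of each contrast side by side. In all, 1269 genes (9.33%) passed in opposite directions, 595 higher under sh45 and lower under sh43 and 674 the reverse. That all 1269 also differed between the hairpins is nearly ensured by their choice and adds no support. With upper-quartile factors the split was 753 against 493. The changes were modest: their medians were 0.38 under sh45 and -0.49 under sh43 for the first kind and -0.30 and 0.38 for the second. Past a log2 change of 0.5 under both hairpins there were 119 and 62 genes, and past 1 there were 18 and 10. The genes below are the 10 of each kind with the largest smaller change among those with a mean of at least 5 CPM in 1 of the 3 groups, which leaves out some past 1. Groups that lie apart on either side of shCtrl largely follow from this choice.

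Among genes higher under sh45 and lower under sh43, PTGDS measured 18.2, 13.1 and 15.1 CPM under sh45, 1.15, 1.28 and 2.46 CPM under sh43 and, under shCtrl, 5.05, 5.95 and 6.25 CPM. All 3 groups were apart, and the changes were 1.43 under sh45 and -1.85 under sh43. DEPP1, a target of FOXO factors, measured 371, 350.2 and 356 CPM under sh45, 93.2, 86.1 and 89.2 CPM under sh43 and, under shCtrl, 183, 189 and 195 CPM, again without overlap. SLC7A2, a transporter of cationic amino acids, averaged 29.9 CPM under sh45, 3.39 CPM under sh43 and, under shCtrl, 13.7 CPM, and AMT, of the glycine cleavage system, averaged 15.1 CPM under sh45, 2.55 CPM under sh43 and, under shCtrl, 6.65 CPM. TMEM91 averaged 10 CPM under sh45, 1.84 CPM under sh43 and, under shCtrl, 4.82 CPM. PDGFA-DT and PAXIP1-DT, transcripts that start beside PDGFA and PAXIP1 on the other strand, averaged 30.1 CPM under sh45, 5.2 CPM under sh43 and, under shCtrl, 11.3 CPM and 28.8 CPM under sh45, 5.84 CPM under sh43 and, under shCtrl, 13.7 CPM, and the kit does not mark the strand, so reads of overlapping neighbours cannot be told apart. AMY2B and the pseudogene ADCY10P1 also passed, but both resemble other copies, and AMY2B held its call under 16 of 17 alternatives.

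Among genes lower under sh45 and higher under sh43, PODXL, a sialomucin of podocytes and of aggressive carcinomas, measured 7.85, 7.33 and 9.49 CPM under sh45, 51.4, 50.5 and 51.5 CPM under sh43 and, under shCtrl, 19.5, 18.1 and 20.2 CPM. The groups did not overlap, with changes of -1.22 under sh45 and 1.41 under sh43. EPHB2, a receptor of ephrin-B ligands, measured 13.1, 13 and 14.3 CPM under sh45, 66.4, 66.9 and 61.5 CPM under sh43 and, under shCtrl, 22.4, 27.8 and 27 CPM, with changes of -0.93 and 1.34 under sh45 and sh43. TMEM250 averaged 54.9 CPM under sh45, 197 CPM under sh43 and, under shCtrl, 104 CPM, and RBM24, an RNA-binding splicing regulator of muscle, averaged 1.35 CPM under sh45, 9.22 CPM under sh43 and, under shCtrl, 2.72 CPM. GASK1B averaged 1.16 CPM under sh45, 9.55 CPM under sh43 and, under shCtrl, 2.88 CPM. HBEGF changed by -1.55 under sh45 and 1.62 under sh43, and ANKRD1 by -1.25 and 3.0. JPH2, SP140 and the pseudogene LSP1P4 were the others of these 10, and JPH2, below 1 CPM in each sh45 library, held its call under 11 of 17 alternatives.

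**Figure D4:**
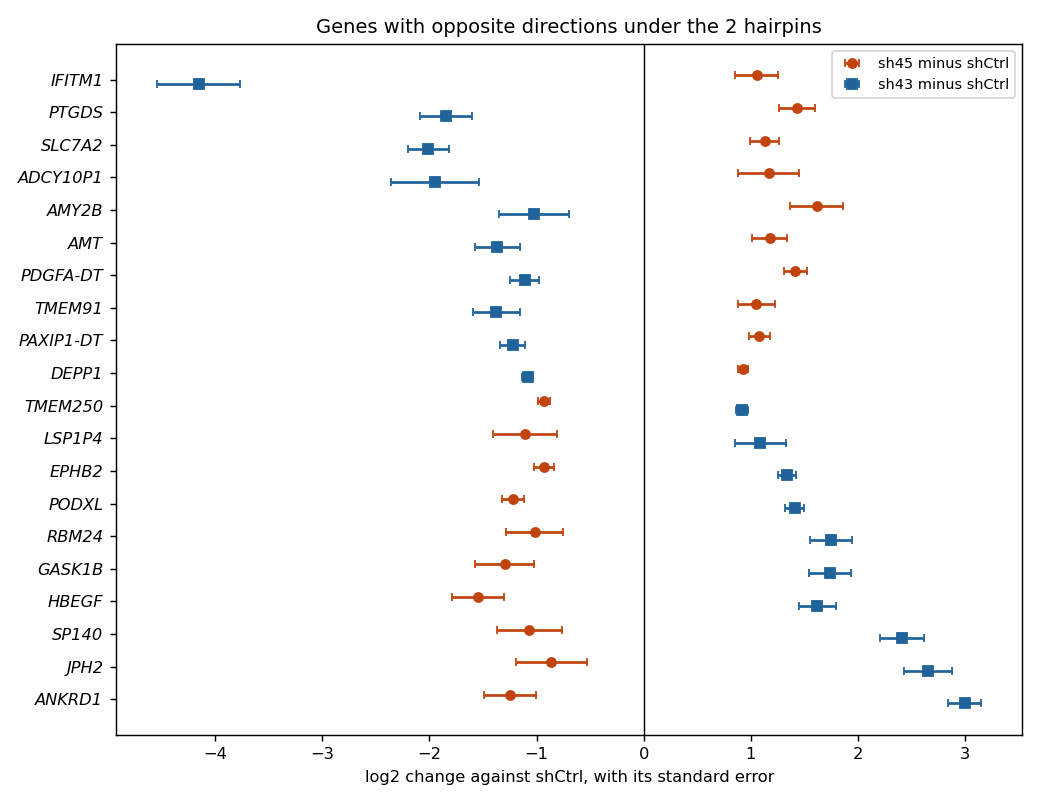
Log2 changes against shCtrl with their standard errors, under sh45 (circles) and sh43 (squares), of 20 genes with opposite calls, the 10 of each kind with the largest smaller change among those with a mean of at least 5 CPM in 1 of the 3 groups. The upper 10 genes lie right of 0 under sh45 and left of 0 under sh43, with IFITM1 at 1.05 and -4.15, and the lower 10 lie the other way, with ANKRD1 at -1.25 and 3.0.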

How the data were processed

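RNA-seq libraries of 786-O cells were read as paired ends from an unstranded kit (TruSeq RNA v2), per the labels' protocols. The authors deposited, for each library, estimated counts and effective lengths per RefSeq transcript. Salmon 0.11.3, STAR 2.5.2b, DESeq2 1.14.1, cutadapt 1.12 and the build hg19 are listed, without roles, in the submitters' processing notes.

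Deposited estimated counts were summed over 60422 transcripts to gene symbols with the RefSeq gene table (59301) and GENCODE release 29 (684), the other 437 transcripts, 0.0854% to 0.108% of counts, being left out, and 1342 further copies of a listed transcript counting with their gene. Sums were rounded to whole numbers and fitted with edgeR 4.0.16 in R 4.3.3 (TMM factors, filterByExpr, quasi-likelihood test, 1 mean per group, 9 libraries), which left 13597 of 27064 genes. A gene was called at an adjusted p under 0.05, and standard errors are the absolute log2 value over the square root of F. Effective lengths, as deposited by the authors in another unit (bases), served as offsets in an alternative and to sort genes into 5 equal groups by length. The median log2 difference between hairpins was 0.098 in the group of shortest genes and -0.037 to 0.016 in the others. The part of length in the list medians was not tested further. On simulated data for sh45 against sh43, with 200 changed genes among 13448 tested, 66% of changes of log2 0.5 and 91% of log2 1 were recovered, with 15 false among 172 calls. In the data 66.8% of genes were called, a far larger share than was simulated, so these rates may not carry over.

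The hairpins, the 42 gene lists and the tests were chosen with earlier results of these data known. Genes named are ZHX2, USP13 and their partners; the 12 called genes with the largest difference in each direction between hairpins, with no overlap of libraries and a mean of 5 CPM or more in a hairpin group; the 10 opposite genes of each kind with the largest smaller change and a mean of 5 CPM or more in any group; and in each list up to 6 called members with the largest difference and all opposite ones. PAX8, CD68, C4A, IFIT3, PTX3, RPS26, TXNRD1 and those marked so in the text were named after their values were seen. Some genes that the rule names are not reported here. Alternatives were other scaling factors, no filter, DESeq2 1.42.0, 6-library fits, the replicate number as a block, effective lengths, mitochondrial rRNA left out and each library left out. Promoters came from the RefSeq table of GRCh38.p14, another build than that of the files, and were matched by symbol. The 3 libraries of a group differed by more than sampling noise (chi-square per degree of freedom 2.333 to 6.278). p-values measure the spread between these libraries only.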

Additional observations from a re-analysis of the deposited data

How the results depend on the processing

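The count of genes that differ between sh45 and sh43 (9088) lay between 8684 (DESeq2) and 9269 (6 libraries) over the alternatives that kept all libraries, and between 8450 and 9413 when each library was left out in turn. Opposite genes (1269) numbered 1133 with DESeq2, 1270 with RLE factors and 1053 to 1188 with a library left out, and list members called between hairpins (801) 776 with DESeq2 and 763 to 822 with a library left out. With upper-quartile factors 5270 genes were higher and 3759 lower under sh45, against 4645 and 4443, and the opposite genes split 753 against 493. This scaling moved the median of all genes between hairpins to 0.09 from 0.02. The ZHX2 difference lay between 1.005 and 1.1225 with a library left out and was 1.1371 with upper-quartile factors.

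Same-numbered libraries did not deviate together (correlations -0.103 to 0.058, against -0.118 to 0.141 for differently numbered ones). With the replicate number as a block, 8966 genes differed between hairpins, 1210 were opposite, 792 list members were called and the ZHX2 difference was 1.06.

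Of 336 named genes, 12 lost their call between hairpins under an alternative and none gained one, while 51 lost and 16 gained it for sh45 against shCtrl and 25 and 15 for sh43 against shCtrl. None reversed. The medians of both respiratory chain lists and of the lysosome list, all near 0, turned negative when an sh45 library was left out (replicate 3 for the chain, replicate 1 for the lysosome), and that of the metalloproteinase list turned positive with upper-quartile factors. Of 158 named opposite genes, 111 kept both calls under all 17 alternatives.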

Other observations

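Further lists had members on both sides. Of 24 p53 targets, 11 were higher and 8 lower under sh45 than under sh43 (median 0.15). CCNG1, cyclin G1, averaged 146 CPM under sh45, 67.9 CPM under sh43 and, under shCtrl, 164 CPM, and DDB2, of ultraviolet damage repair, averaged 57.8 CPM under sh45, 30.4 CPM under sh43 and, under shCtrl, 51.5 CPM. SESN2, a stress-induced regulator of growth signalling that ATF4 also drives, averaged 32.2 CPM under sh45, 58.9 CPM under sh43 and, under shCtrl, 59.8 CPM. GDF15, a stress cytokine, averaged 421 CPM under sh45, 708 CPM under sh43 and, under shCtrl, 222 CPM. Of 22 genes of the unfolded protein response, 4 were higher and 13 lower (median -0.22), with DDIT3, the stress factor CHOP, at 18.9 CPM under sh45, 48.4 CPM under sh43 and, under shCtrl, 20.7 CPM and HSPA5, the ER chaperone BiP, at 774 CPM under sh45, 1379 CPM under sh43 and, under shCtrl, 912 CPM.

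Nuclear genes of respiratory complex I were higher under sh45 in 14 of 37 and lower in 11 (16 and 7 with upper-quartile factors). Those of complexes II to IV and the ATP synthase gave 12 and 12 of 39, against 18 higher and 11 lower with upper-quartile factors and 7 higher and 14 lower without sh43 replicate 2. SDHD, an anchor subunit of complex II, stood apart, at 70.9, 71.6 and 67.7 CPM under sh45, 22.8, 21.5 and 26.5 CPM under sh43 and, under shCtrl, 65.1, 68.2 and 68.5 CPM. The sh43 libraries were low and those of sh45 overlapped with shCtrl. Of 30 autophagy and lysosome genes 11 were higher and 13 lower (12 and 11 with upper-quartile factors): the protease CTSB averaged 613 CPM under sh45, 217 CPM under sh43 and, under shCtrl, 437 CPM, and ATP6V0D1, a proton pump subunit, averaged 47.7 CPM under sh45, 126 CPM under sh43 and, under shCtrl, 79.3 CPM, each with opposite calls against shCtrl. Among 14 fatty acid genes 2 were higher, SCD and FADS1, and 6 lower. SCD, the desaturase that makes oleate, averaged 438 CPM under sh45, 307 CPM under sh43 and, under shCtrl, 1412 CPM.

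The genes that process hairpins and small RNAs differed too. Of 15, 3 were higher and 9 lower under sh45. DICER1, which cuts hairpins, averaged 39.2 CPM under sh45, 23.6 CPM under sh43 and, under shCtrl, 32.4 CPM and had opposite calls. AGO2, the Argonaute that cleaves targets, averaged 117 CPM under sh45, 156 CPM under sh43 and, under shCtrl, 94.6 CPM (named after its value was seen), and TLR3, a sensor of double-stranded RNA, averaged 3.66 CPM under sh45, 7.85 CPM under sh43 and, under shCtrl, 11.3 CPM. Among chromatin proteins HMGA1 was far above shCtrl under both hairpins (34.8 CPM under sh45, 83.5 CPM under sh43 and, under shCtrl, 3.19 CPM). Replication-dependent histones, whose mRNAs carry no poly(A) tail, were represented by 7 genes, 4 of them lower under sh45 and 3 not passing. Of 22 mesenchymal and matricellular genes 11 were higher and 8 lower, and SNAI2, a repressor of epithelial genes, averaged 9.86 CPM under sh45, 30.9 CPM under sh43 and, under shCtrl, 12.6 CPM. Of 5 metallothionein and zinc export genes 4 were lower, and MT2A was higher (1586 CPM under sh45, 1210.3 CPM under sh43 and, under shCtrl, 479 CPM). Among the lower ones, MT1X lost its call with upper-quartile factors (log2 difference -0.08), the replicate block and DESeq2, and when some single libraries were left out.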
